A study of Mus musculus with 3 samples.

Results

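The 2 mature arms of mouse miR-210, mmu-miR-210-3p and mmu-miR-210-5p (miR-210-3p and miR-210-5p below), were followed in the exosomes of bone-marrow mesenchymal stromal cells (MSCs). They were taken by name from the 1881 mouse miRNAs of the array, and each arm had 2 probes of 15 spots. Exosomes are small vesicles that cells release and that carry RNA. H+G-Exo came from MSCs kept in hypoxia with GW4869 for 24 h, H-Exo from MSCs in hypoxia for 24 h and N-Exo from MSCs in normoxia for 24 h. GW4869 inhibits neutral sphingomyelinase and is used to reduce exosome release. The cells of all 3 groups came from the bone marrow of male wild-type C57BL/6 mice 4 to 6 weeks old, at passages 3 to 6 and in medium with 10% fetal bovine serum, and the medium of 10 dishes was collected for an isolation. The labels give neither the oxygen level nor the dose of GW4869. Each group was 1 array, so no test between groups was possible, and every SD and SE below is over the spots of a probe, a technical error within an array. The submitters describe 3 samples of every exosome type, and whether RNA was pooled is not stated.

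The transcription of miR-210 is activated by the hypoxia-inducible factors HIF-1 and HIF-2 when oxygen is low. The guide strand comes from the 3p arm and represses, among others, the iron-sulphur cluster scaffold ISCU, which lowers mitochondrial respiration, and the ephrin EFNA3, which in endothelial cells favours vessel formation. The 5p arm is the other strand of the duplex and is usually the less abundant. In cells of many kinds miR-210 is the miRNA most regularly raised by hypoxia, and MSC vesicles that carry it have been studied for repair of the heart.

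The sequences show what the probes could measure. The mature arms and their hairpin are those of RefSeq for GRCm38.p6, where the gene lies on the minus strand of chromosome 7. In the mature arms the capitals mark the seed, bases 2 to 8, which pairs with targets.
miR-210-3p: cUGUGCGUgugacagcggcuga
miR-210-5p: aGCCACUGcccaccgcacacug
In the hairpin of 110 bases the capitals mark the arms, the 5p arm at bases 28 to 49 and the 3p arm at bases 66 to 87.
mir-210 hairpin: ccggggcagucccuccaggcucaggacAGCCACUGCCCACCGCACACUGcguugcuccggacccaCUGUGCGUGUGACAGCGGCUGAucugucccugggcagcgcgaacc
No other mature mouse miRNA among the 1679 names of the RefSeq table had either seed, 0 for the 3p arm and 0 for the 5p arm, so the array held no seed relative to set beside them. By the same annotation the gene overlaps no other gene, and its neighbours are Rassf7 and Lmntd2 on one side and Gm51460 and Phrf1 on the other.

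Each arm had a longer and a shorter probe, complementary to its 3' end, printed here because both were used as separate measurements. The capital marks the 1 base that the longer probe has beyond the shorter.
miR-210-3p, 16-base probe: tcagccgctgtcacaC
miR-210-3p, 15-base probe: tcagccgctgtcaca
miR-210-5p, 13-base probe: cagtgtgcggtgG
miR-210-5p, 12-base probe: cagtgtgcggtg
The array files place the 16-base probe at chr7:148407355-148407369 and the 13-base probe at chr7:148407320-148407331 of mm9. The 3p probes pair with bases 7 to 22 and 8 to 22 of the miRNA, so they leave out most of the seed. None of the other 1678 mature names holds the whole stretch that either 3p probe pairs with, and the longest run shared with the 3p target was 9 bases, in miR-7672-5p.

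miR-210-3p was bright on every array, and all 30 of its spots were well above background in H+G-Exo, in H-Exo and in N-Exo. Before any scaling, the 16-base probe gave a processed intensity of 2894 ± 114 in H+G-Exo, 3108 ± 104 in H-Exo and 3133 ± 141 in N-Exo (SD, 15 spots each). Its spots ran between 2739 and 3088 in H+G-Exo, between 2937 and 3256 in H-Exo and between 2887 and 3328 in N-Exo. The 3 sets of spots overlapped, and the unscaled signal of the hypoxic array was not above that of the normoxic one. The 15-base probe gave 1324 ± 42.8 in H+G-Exo, 1428 ± 80.3 in H-Exo and 1502 ± 26.7 in N-Exo (SD, 15, 14 and 13 spots). On that probe the spots of H+G-Exo lay below those of N-Exo without overlap, and the other pairs of arrays overlapped.

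After scaling the picture was different. Each array was divided by its own 75th percentile, taken over those probes that were detected on every array; this divisor was 468.9 in H+G-Exo, 235.0 in H-Exo and 417.3 in N-Exo. On this scale the 16-base probe gave 6.17 ± 0.243 in H+G-Exo, 13.2 ± 0.443 in H-Exo and 7.51 ± 0.339 in N-Exo (SD, 15 spots each). The spots of H-Exo, from 12.5 to 13.9, lay above those of both other arrays, which ran from 5.84 to 6.58 in H+G-Exo and from 6.92 to 7.98 in N-Exo. The 15-base probe gave the same order, with 2.82 ± 0.0913 in H+G-Exo, 6.08 ± 0.342 in H-Exo and 3.60 ± 0.0640 in N-Exo. The unscaled signal of H-Exo was not higher, and its divisor was the lowest of the 3. A lower number of vesicles, less miRNA in each vesicle and less labelled material cannot be told apart in such samples.

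**Figure D1:**
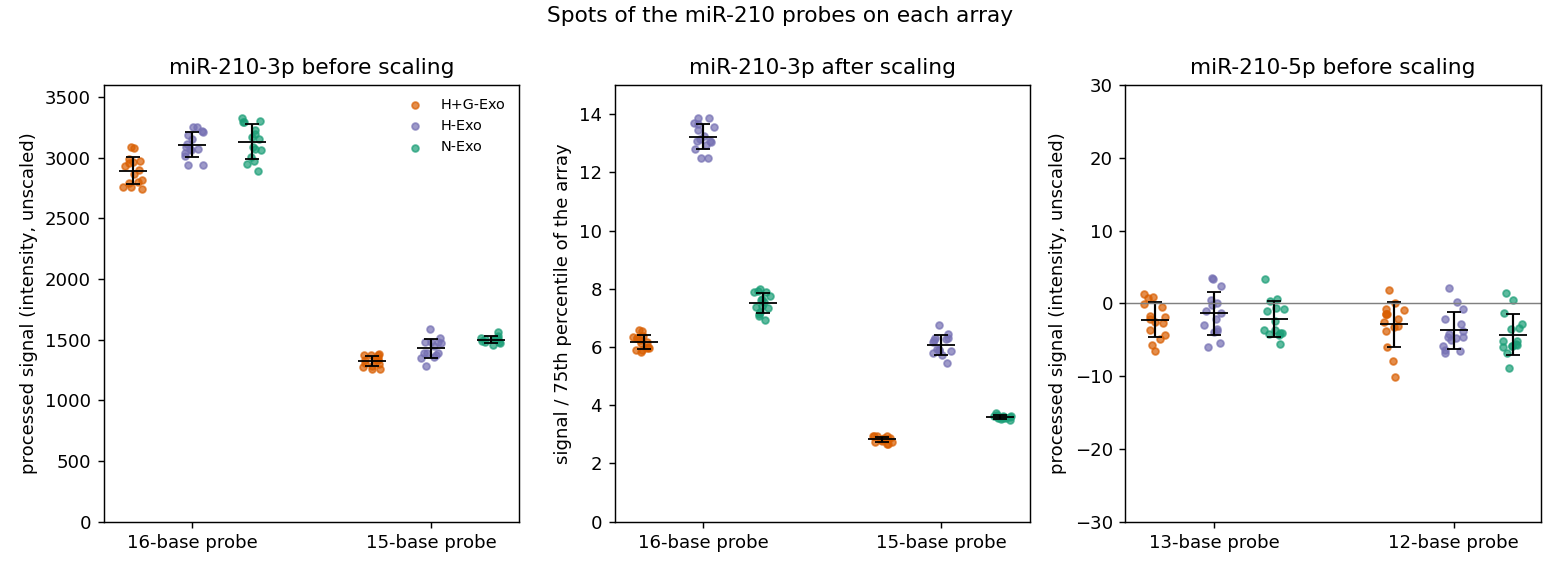
Spots of the probes of miR-210-3p and miR-210-5p on each array, in H+G-Exo, H-Exo and N-Exo from left to right, before and after scaling, with bars for the mean ± SD over spots; the y axes are processed intensity, or its ratio to the array's 75th percentile. The unscaled spots of miR-210-3p overlap on the 16-base probe, while the scaled spots of H-Exo lie above those of the other arrays, and the spots of miR-210-5p lie around 0.

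On none of the 3 arrays did miR-210-5p stand well above background. The software marked 0 of its 30 spots as well above background in H+G-Exo, 0 of 30 in H-Exo and 0 of 30 in N-Exo. Its 13-base probe had a mean unscaled intensity of -2.26 ± 2.41 in H+G-Exo, -1.39 ± 2.97 in H-Exo and -2.19 ± 2.51 in N-Exo (SD, 15, 15 and 14 spots). Its 12-base probe had means of -2.86 ± 3.10, -3.74 ± 2.58 and -4.30 ± 2.78 in H+G-Exo, H-Exo and N-Exo. Values below 0 arise because the software subtracts a background, and 25, 23 and 24 of the 30 spots fell below 0 in H+G-Exo, H-Exo and N-Exo. For comparison, the 99th percentile of the negative-control spots was 10.0 in H+G-Exo, 8.0 in H-Exo and 10.3 in N-Exo. The 5p arm has no fold change here, and a low level of it cannot be told apart from its absence by these probes of 12 and 13 bases.

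The first comparison of the design set hypoxic against normoxic exosomes, the question for which miR-210 is the textbook marker. In H-Exo, scaled miR-210-3p was 1.76-fold the N-Exo signal by the 16-base probe, a log2 difference of 0.82 ± 0.021 (SE over spots), and 1.69-fold by the 15-base probe, a log2 difference of 0.76. It did not reach the 2-fold at which a miRNA was counted as changed, given also detection on both arrays and a difference over 2 SE. By that rule 24 of the 582 miRNAs measured on both arrays were higher in H-Exo, 4.12%, and 62 were lower, 10.7%. The median miRNA had a log2 difference of 0.34, also higher in H-Exo, and miR-210-3p exceeded it by 0.48. It ranked at the 91.1th percentile, with 51 miRNAs above it and 530 below. Without scaling the log2 difference was -0.01 for miR-210-3p, against -0.49 for the median miRNA.

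The direction of this difference depended on the scaling. Of 15 ways to compute it, 13 put miR-210-3p higher in H-Exo, 2 of them by at least 2-fold. The exceptions were no scaling, with a log2 difference of -0.01, and scaling to the hybridization spike-in dmr_6, with -0.10. The 15 ways are not independent: 9 were scalings, which held both exceptions. The others changed the signal measure, the spots used or the source of values. The array-wide direction turned too: the median over all miRNAs was above 0 under 6 of the 9 scalings and below 0 under 3, between -0.57 and 1.12. The percentile of miR-210-3p lay between 90.7 and 92.8 under the 8 scalings that divide an array by 1 number, which leave the order of the miRNAs nearly fixed by construction. Under quantile normalization, which can reorder them, it was 98.6.

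**Figure D2:**
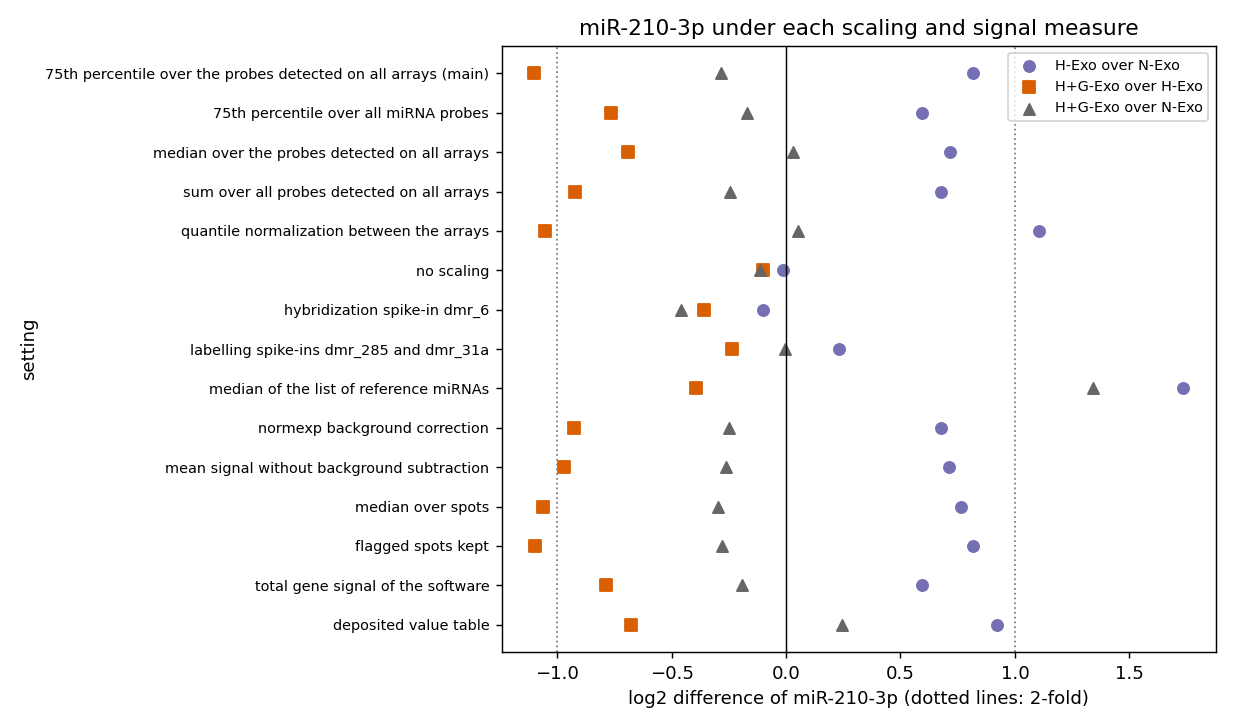
Log2 difference of miR-210-3p in each of the 3 comparisons under the scalings and summaries tried, with the reported setting marked. The values run between -0.10 and 1.73 for H-Exo over N-Exo, between -1.10 and -0.10 for H+G-Exo over H-Exo, and between -0.46 and 1.34 for H+G-Exo over N-Exo.

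The second comparison asked what GW4869 changed in hypoxia. In H+G-Exo, scaled miR-210-3p was below its H-Exo signal, with a log2 difference of -1.10 ± 0.019 (SE over spots) on the 16-base probe, which is 2.14-fold lower, and of -1.11 on the 15-base probe, 2.15-fold lower. It passed the 2-fold rule as lower, as did 148 of the 567 miRNAs measured on both arrays, 26.1%, while 35 were higher, 6.17%. The median miRNA was also lower in H+G-Exo, with a log2 difference of -0.42, and relative to that median miR-210-3p was at -0.68. It stood at the 22.6th percentile, with 128 miRNAs lower still. The array-wide direction turned with the scaling. The median over all miRNAs was below 0 under 5 of the 9 scalings and above 0 under 4, where higher calls outnumbered lower ones: 185 against 7 with no scaling, 141 against 23 with dmr_6, 165 against 17 with the labelling spike-ins and 140 against 26 with the reference miRNAs. The difference of miR-210-3p was below 0 in all 15 settings, but reached 2-fold in 4 of them, and without scaling it was -0.10 with overlapping spots on the 16-base probe.

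H+G-Exo set against N-Exo showed a small difference. The scaled log2 difference of miR-210-3p was -0.28 ± 0.022 (SE over spots), 1.22-fold lower in H+G-Exo, and -0.35 on the 15-base probe, 1.27-fold lower. The spots did not overlap, but the 2-fold rule was not met. In this comparison 112 of 607 miRNAs were higher by the rule, 18.5%, and 159 were lower, 26.2%. miR-210-3p was at the 37.9th percentile, at -0.23 relative to the median on the log2 scale. Its sign was positive in 4 of the 15 settings, so no direction was settled.

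Because the 3 comparisons reuse the same arrays, the higher scaled level in H-Exo against N-Exo and the lower level in H+G-Exo against H-Exo share the H-Exo array and are not independent. Among the 563 miRNAs detected on all 3 arrays, 108 lay above the median in H-Exo over N-Exo and below it in H+G-Exo over H-Exo, as miR-210-3p did. Of these, 7 had larger differences than miR-210-3p in both.

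**Figure D3:**
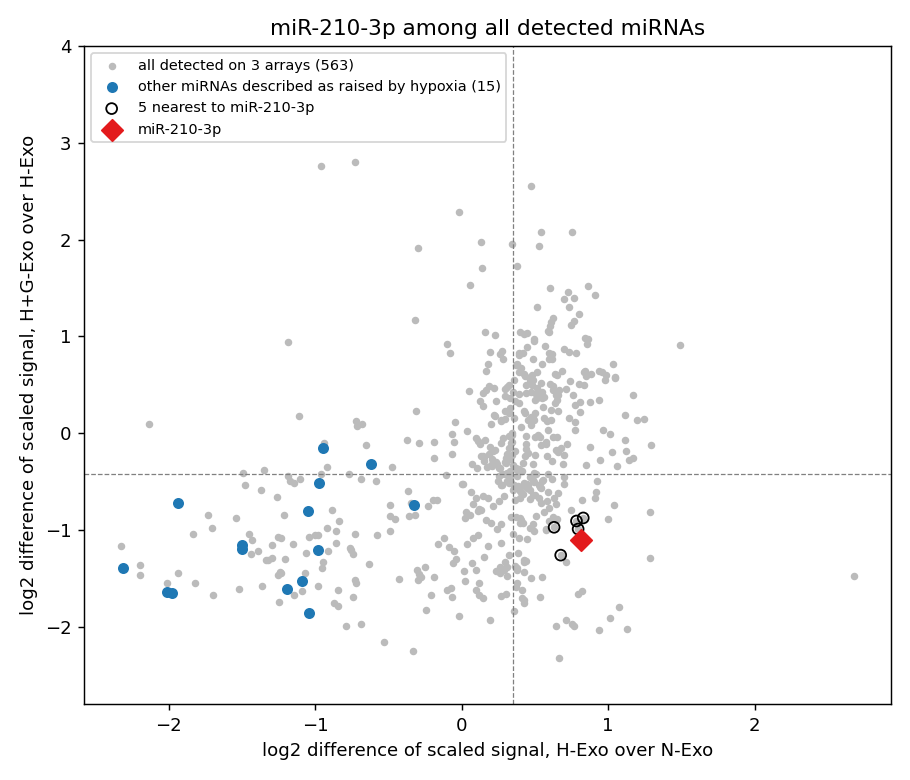
Each point is 1 of the 563 miRNAs detected on all 3 arrays, with its log2 difference of H-Exo over N-Exo on the x axis and of H+G-Exo over H-Exo on the y axis, dashed lines at the medians, and the other 15 miRNAs of the hypoxia list in blue. miR-210-3p lies at 0.82 and -1.10, and the 5 miRNAs with the nearest pattern lie around it.

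The 5 miRNAs nearest to miR-210-3p by the distance over these log2 differences were miR-466i-3p, miR-8104, miR-574-3p, miR-466f-3p and miR-7211-5p, at distances between 0.111 and 0.225. The nearest, miR-466i-3p, had scaled signals of 0.280 ± 0.0104 in H+G-Exo, 0.556 ± 0.0328 in H-Exo and 0.321 ± 0.0193 in N-Exo. miR-574-3p had 0.131 ± 0.00915 in H+G-Exo, 0.315 ± 0.0103 in H-Exo and 0.197 ± 0.00942 in N-Exo. The likeness is over 3 arrays and describes only that all of these were highest on the scaled H-Exo array.

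Seen without scaling, miR-210-3p was one of the most even signals on the arrays. Its highest unscaled array mean was 1.08 times its lowest, against a median of 2.30 times over the 563 miRNAs. The ratio was smaller for 2 of them, miR-466i-3p at 1.02 and miR-8104 at 1.06, and next came miR-466f-3p at 1.09. These 3 were read off after the values were seen. They are also among the nearest patterns, since a flat unscaled signal takes its scaled pattern from the scaling factors. The spots of miR-8104 varied widely, with scaled signals of 0.191 ± 0.0482 in H+G-Exo, 0.358 ± 0.121 in H-Exo and 0.208 ± 0.0704 in N-Exo. Its place in this order is therefore loose. An evenness of signal does not show an evenness of amount.

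**Figure D4:**
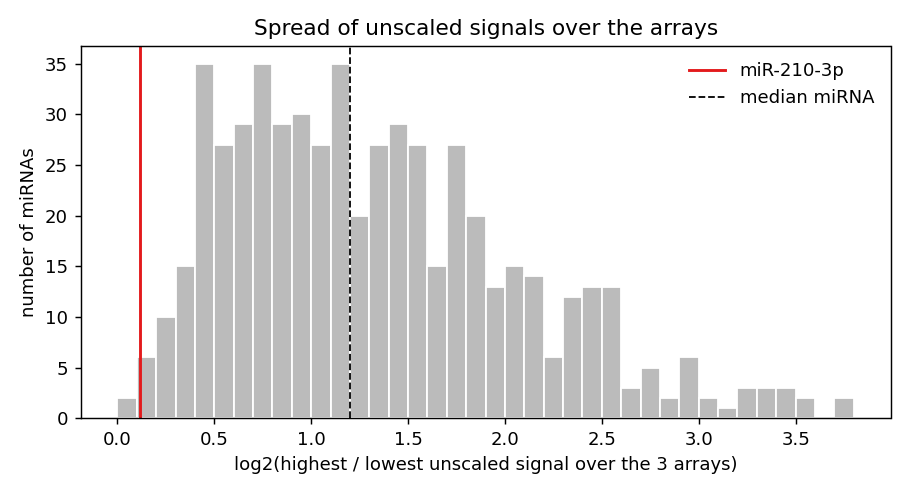
Number of miRNAs, of 563, by the log2 of the highest unscaled array mean divided by the lowest. miR-210-3p lies near the left end at a ratio of 1.08, and the dashed line marks the median ratio of 2.30.

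Other miRNAs reported to rise in hypoxia did not share the scaled pattern of miR-210-3p. A list of 20 was drawn up from general knowledge of such reports, of which 19 were on the array and 16 were measured on both H-Exo and N-Exo. Of the 15 besides miR-210-3p, 0 were higher in H-Exo and 10 were lower by the 2-fold rule, beside 10.7% lower over all miRNAs. Their median log2 difference was -1.09, with a range between -2.31 and -0.33, where the median over all miRNAs was 0.34. On the reported scale miR-210-3p was the one member with a difference above 0, and its sign turned with no scaling (-0.01) and with dmr_6 (-0.10). The list median with miR-210-3p, -1.07, stayed below 0 over the 9 scalings, between -1.99 and -0.15. The count of lower members ran between 4, with the reference miRNAs, and 15, with no scaling. Over all 582 miRNAs, 11 and 134 were lower under these scalings. miR-322-5p, the mouse counterpart of human miR-424, which in human endothelium acts on the HIF pathway through CUL2, had 0.318 ± 0.0197 in H+G-Exo, 0.835 ± 0.0402 in H-Exo and 4.15 ± 0.154 in N-Exo. miR-103-3p, which represses the miRNA-processing enzyme Dicer, had 0.555 ± 0.0581, 2.01 ± 0.0783 and 4.13 ± 0.254 in H+G-Exo, H-Exo and N-Exo, and it is nearly identical to miR-107, so their signals may mix. miR-93-5p stood closest to 0, with 0.326 ± 0.0214 in H+G-Exo, 0.546 ± 0.0468 in H-Exo and 0.685 ± 0.0198 in N-Exo.

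In H+G-Exo over H-Exo, 9 of the other 15 were lower and 0 were higher, beside 26.1% lower over all miRNAs. Their median was -1.20, and 6 of them lay above miR-210-3p and 9 below. These calls rested on the scaling. Of the 16 with miR-210-3p, 10 were lower as reported. Against that, 0 were lower with no scaling (median -0.18) or the labelling spike-ins, and 1 with dmr_6 or the reference miRNAs. Over all 567 miRNAs, 148 were lower as reported, against 7, 17, 23 and 26 in that order of scalings. In H+G-Exo over N-Exo, 14 of the 15 were lower, beside 26.2% over all miRNAs, with a median of -2.65. All 15 lay below miR-210-3p, as did 230 of all 607 miRNAs. With miR-210-3p counted, between 8 and 15 of the 16 were lower over the 9 scalings. Over all 607 miRNAs between 32 and 184 were lower.

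**Figure D5:**
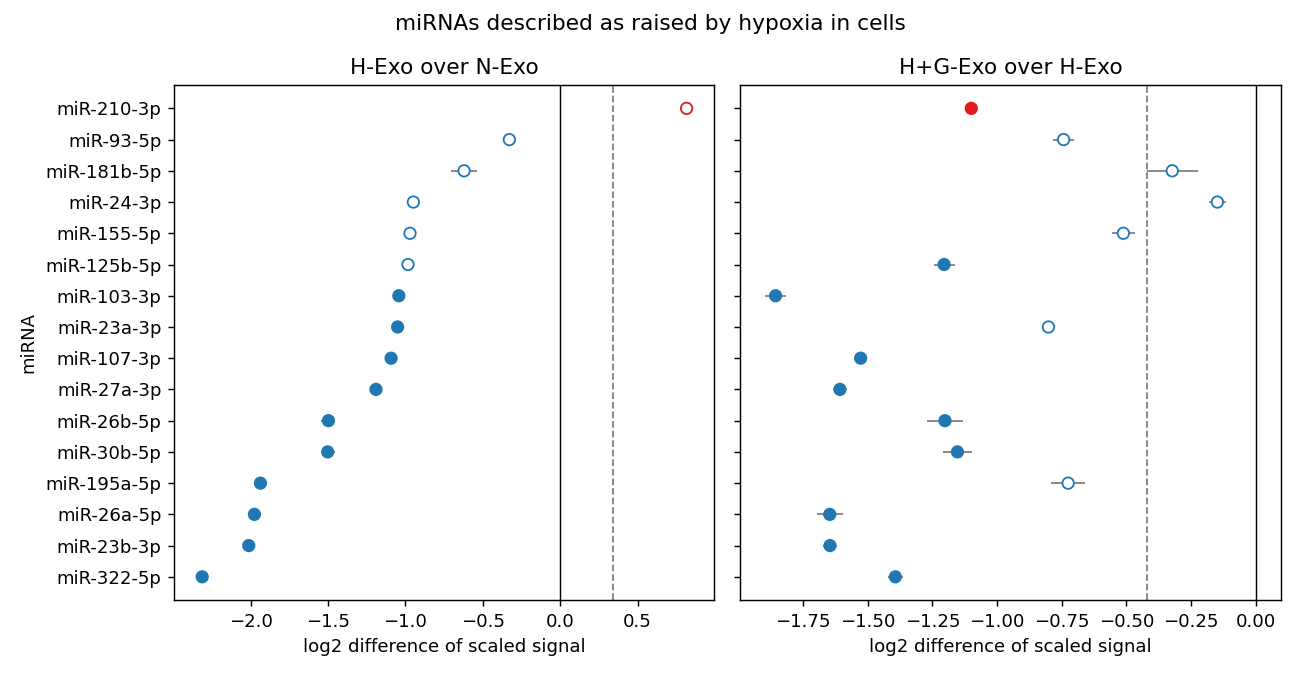
Log2 differences of scaled signal for the 16 measured miRNAs reported to rise in hypoxia, in H-Exo over N-Exo and in H+G-Exo over H-Exo, with lines for the SE over spots, filled points for those past the 2-fold rule, miR-210-3p in red and a dashed line at the median over all miRNAs. In H-Exo over N-Exo miR-210-3p is at 0.82 and the other 15 lie between -2.31 and -0.33.

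Of 9 miRNAs reported to act on HIF or its regulators, 8 were measured. In H-Exo over N-Exo 4 were lower and 0 higher, with a median of -1.03, beside 10.7% lower over all miRNAs. Over the 9 scalings the count of lower ones ran between 1 and 7, and over all 582 miRNAs between 11 and 142. Set against H-Exo, H+G-Exo had 5 lower and 0 higher, with a median of -1.35, beside 26.1% lower over all miRNAs. Of 6 miRNAs reported to fall in hypoxia, 5 were measured, and 2 were lower in H-Exo over N-Exo, with a median of -0.98, and 3 in H+G-Exo over H-Exo, with a median of -1.46, against the same shares over all miRNAs. Over the 9 scalings the first count ran between 0 and 5, beside the same 11 to 142 of all 582 miRNAs, with medians between -1.90 and -0.06. Both lists had 0 lower in H+G-Exo over H-Exo under 4 scalings: none, dmr_6, the labelling spike-ins and the reference miRNAs. Over all 567 miRNAs, 7, 23, 17 and 26 were lower under these scalings. miR-210-3p lay above every measured member of both of these lists in H-Exo over N-Exo, as it did above 530 of all 582 miRNAs. The lists overlap, so their counts are not separate results. Of the HIF list, miR-107-3p, miR-155-5p and miR-322-5p are also among those reported to rise in hypoxia. From the same list, miR-20b-5p and miR-199a-5p are also among those reported to fall, and miR-22-3p and miR-199a-5p are also stromal markers.

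Against miRNAs often used as references, miR-210-3p was higher in hypoxic exosomes for every one measured. The same held against 530 of the 582 miRNAs measured on both arrays. The ratio of miR-210-3p to each of the 8 detected on all arrays changed between H-Exo and N-Exo by a median of 1.88 on the log2 scale, from 0.29 for miR-423-3p to 2.25 for miR-361-5p, above 0 for 8 of 8. Such a ratio needs no scaling factor. However, 5 of those references were themselves lower in H-Exo by the 2-fold rule, beside 10.7% of all miRNAs as reported. Over the 9 scalings that count ran between 0 and 6, and over all 582 miRNAs between 11 and 142. Of the 8, miR-103-3p and miR-93-5p belong also to the list reported to rise in hypoxia, and miR-16-5p to the list reported to fall. Between H+G-Exo and H-Exo the median change was -0.31 and the ratio was higher for 3 of 8. Between H+G-Exo and N-Exo it was 1.57, higher for 6 of 8. Among all miRNAs measured, miR-210-3p stood at the 22.6th percentile in the former comparison and at the 37.9th in the latter.

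Probe composition moved with the results. The 16-base probe of miR-210-3p has a GC content of 62.5%, in the middle of 3 classes of probe GC, which spanned 53.8% to 64.3%. In H-Exo over N-Exo the median log2 difference was -0.10 in the low, 0.37 in the middle and 0.45 in the high class. miR-210-3p exceeded its class by 0.45, at the 91.3th percentile of 184 miRNAs. In H+G-Exo over H-Exo the class medians were -0.91, -0.39 and -0.04, and miR-210-3p was at -0.71 relative to its class, at the 16.5th percentile. The part of base composition in the difference was not tested beyond these classes.

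Of 12 stromal markers, 11 were detected in H+G-Exo, 10 in H-Exo and 12 in N-Exo, with summed scaled signals of 55.2, 137.1 and 316.3. Most of each sum came from miR-21a-5p, with 29.7, 81.0 and 190.4, and miR-125b-5p, with 15.2, 34.9 and 69.0. The latter is also among the miRNAs reported to rise in hypoxia. Of the 10 stromal markers measured on both arrays, 9 were lower in H-Exo over N-Exo, with a median of -1.35, beside 10.7% lower over all miRNAs. With the reference miRNAs as the scale 2 were lower, with a median of -0.43, beside 11 of all 582 miRNAs. Set against H-Exo, 7 were lower in H+G-Exo, with a median of -1.26, beside 26.1% over all miRNAs. None was lower there with no scaling (median -0.26), dmr_6, the labelling spike-ins or the reference miRNAs. Over all 567 miRNAs, 7, 23, 17 and 26 were lower under these scalings. The 2 endothelial and 5 epithelial markers were detected on no array. Each epithelial marker was a 3p arm, while miR-200a-5p and miR-200b-5p, outside the list, were detected on all 3 arrays. Their unscaled signals were 180 and 110 in H+G-Exo, 217 and 191 in H-Exo, and 308 and 162 in N-Exo. Of 7 blood markers 3, 2 and 2 were detected, with summed signals of 0.180 in H+G-Exo, 0.363 in H-Exo and 0.287 in N-Exo. Of 5 muscle markers 2, 1 and 2 were detected, and of 3 liver and serum markers 0, 0 and 2. Over all 1881 miRNAs, 678 were detected in H+G-Exo, 586 in H-Exo and 688 in N-Exo. The part of the marker shifts in the result for miR-210-3p was not tested.

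The nearest miRNAs of the array by the files' coordinates were miR-483-5p and miR-483-3p, 1434 kb away. miR-483-5p, whose host gene is Igf2, had 2.18 ± 0.288 in H+G-Exo, 1.98 ± 0.0747 in H-Exo and 1.64 ± 0.247 in N-Exo, with log2 differences of 0.27 for H-Exo over N-Exo and 0.14 for H+G-Exo over H-Exo. miR-483-3p differed by 0.15 and -0.29. Neither was past the 2-fold rule.

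In the deposited value table, for which no source used here states the normalization, miR-210-3p had log2 values of 10.1 in H+G-Exo, 10.8 in H-Exo and 9.89 in N-Exo. The columns of the 3 arrays had the same mean, 0.288, and the same maximum, 17.2, so they had been put on a common scale. H-Exo was again highest, with H+G-Exo above N-Exo, the reverse of the order of the scaled spots. miR-210-5p had the lowest value of each column there, a floor that was also the column's median and so was shared by many miRNAs.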

How the data were processed

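RNA from the 3 exosome preparations was labelled with Cy3 and measured on Agilent mouse miRNA arrays, 1 per group, per the labels. The labels' protocols name kits for cRNA amplification and cDNA synthesis, unusual for a miRNA array, so how the material was labelled is uncertain. Per the submitters' processing notes, Agilent Feature Extraction 10.7.1.1 quantified the spots. The deposited files hold intensity per spot, background-subtracted by that software and not scaled between arrays. The series' deposited table was read as log2 values: across miRNAs above its minimum, Pearson's r with log2 of the summed probe intensities was 0.978 in H+G-Exo, 0.998 in H-Exo and 0.970 in N-Exo.

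Beside 56430 miRNA spots, each array had 2164 control spots. These and spots marked as outliers (1466, 1369 and 1568 in H+G-Exo, H-Exo and N-Exo) were left out, and 0 were saturated. A probe was detected where over 50% of its spots were well above background, 678, 586 and 688 miRNAs in H+G-Exo, H-Exo and N-Exo. Probe means were divided by the 75th percentile over probes detected on all arrays, raised to a floor of 0.0653 and put on the log2 scale. A miRNA took its brightest probe. A difference was called at 2-fold and over 2 SE. With 1 array per group there was no test, and the number of arrays limits the precision. The members and lists were chosen with earlier results of these data known. The lists of hypoxia, HIF and reference miRNAs rest on general knowledge. The named miRNAs are the members, the list members, the 5 nearest patterns, seed relatives and the 2 nearest by position. Alternatives changed the scaling, background, spot summary, detection and call rule (limma 3.58.1 for normexp). The computation was checked on simulated data, with the error of the folds taken relative to unchanged miRNAs. That check did not examine the choice of scaling.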

Additional observations from a re-analysis of the deposited data

How the results depend on the processing

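The reported log2 difference of miR-210-3p in H-Exo over N-Exo was 0.82. Other scalings gave 0.60 with the 75th percentile of all probes, 0.72 with the median, 0.68 with the sum, 1.10 with quantile normalization, 0.23 with the labelling spike-ins and 1.73 with the reference miRNAs, and the sign turned with no scaling (-0.012) and the hybridization spike-in (-0.10). Normexp gave 0.68, the mean without background subtraction 0.71, the software's total 0.59 and the deposited values 0.92. For H+G-Exo over H-Exo, reported as -1.10, the same alternatives gave -0.77, -0.69, -0.92, -0.24, -0.39, -0.10 and -0.36 for the scalings other than quantile normalization, then -0.93, -0.97, -0.79 and -0.68. For H+G-Exo over N-Exo, reported as -0.28, the 75th percentile of all probes gave -0.17, the median 0.028, quantile normalization 0.052, no scaling -0.11, the hybridization spike-in -0.46, the labelling spike-ins -0.0053, the reference miRNAs 1.34, the software's total -0.19 and the deposited values 0.24. The alternatives not printed stayed within the spread over spots, 2, 3 and 5 of 14 in the 3 comparisons. The cause of the moves was not tested, beyond the scaling factors themselves.

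Counts of called miRNAs moved too. In H-Exo over N-Exo, 86 were called, against 135 with no scaling, 143 with the hybridization spike-in, 340 with the reference miRNAs, 45 with normexp and 236 at 1.5-fold. In H+G-Exo over H-Exo, 183 were called, against 87 with normexp and 318 at 1.5-fold. In H+G-Exo over N-Exo, 271 were called, against 156 with normexp. The share of calls that were higher ran between 0.699% and 96.8% in H-Exo over N-Exo, 19.1% and 96.4% in H+G-Exo over H-Exo and 30.6% and 91.5% in H+G-Exo over N-Exo over the scalings, against 27.9%, 19.1% and 41.3% as reported. miR-210-5p had 0 spots above background under either detection rule. No paired analysis was possible because each group had 1 array, and no replicate could be left out.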

Other observations

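The 7 miRNAs with larger scaled differences than miR-210-3p in both comparisons, picked after the values were seen, were miR-1943-5p, miR-200b-5p, miR-5110, miR-5134-5p, miR-547-5p, miR-674-5p and miR-6945-5p. miR-5110 had the largest in H-Exo over N-Exo, with a log2 difference of 2.68, and -1.47 in H+G-Exo over H-Exo. miR-674-5p came close to miR-210-3p in the first, with 0.82, and had -1.63 in the second. The array files and the RefSeq annotation place the arms of miR-210 in opposite order along the chromosome, on different builds, and positions were not converted between them.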
